A study of Homo sapiens with 6 samples.

Results

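Histone genes were examined in SW1353, an established line of human chondrosarcoma cells, after transduction with a lentiviral short hairpin RNA (shRNA). The genes were taken by symbol from the deposited gene table: the numbered H1 linkers, the H2A, H2B, H3 and H4 genes of the histone clusters, H2AX, H2AZ1, H2AZ2, H2AJ, H3-3A, H3-3B and both macroH2A genes. This rule, which used no measured value, gave 78 of the 60691 genes listed: 65 replication-dependent genes, 9 variant genes, H2AX, and 3 germline linker genes. The control group, shfirefly, carried a hairpin against insect luciferase, and the other group, shSIRT1, carried one labelled as directed against SIRT1, a deacetylase that consumes NAD+. Both groups were cultured at 3% oxygen, for 48 h from seeding, and each group had 3 libraries that the design text calls biological replicates. The treatment protocol, in contrast to titles, treatment labels and design text, names EPAS1 as the hairpin's target. The comparison was made to relate SIRT1 to transcription driven by HIF-2α, the protein encoded by EPAS1. How many clones or pools of transduced cells lay behind the replicates is not given in the sources used here.

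Nucleosomes wrap DNA around a core of histones H2A, H2B, H3 and H4, and linker histone H1 binds where the DNA enters and leaves. Replication-dependent histone genes lie in clusters, lack introns in their classical form, and supply histones during S phase. Their mRNAs characteristically end not in a poly(A) tail but in a short stem-loop, which the stem-loop binding protein SLBP holds and after which U7 small nuclear RNP and its partners cut. Variant histone genes lie outside the clusters, make polyadenylated mRNAs, and supply chromatin also outside S phase. H2AX, whose protein is phosphorylated at DNA breaks, makes both a stem-loop form and a longer polyadenylated form. The TruSeq Stranded mRNA kit, used for the libraries, selects RNA by its poly(A) tail. Counts of replication-dependent genes in such libraries therefore describe the RNA that the selection retained and not the whole of their mRNA.

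The stem-loop is shown because it sets the replication-dependent genes apart from the variants. The motif searched, on the transcript strand, was GGCNC, then TTTTN, then AGNGCC, without a gap. It occurred in transcripts of 40 of the 58676 genes of GENCODE 29 on GRCh38 (0.068%), and 28 of those 40 were among the histone genes studied: 27 of the 63 replication-dependent genes matched to that annotation, and H2AX. None of the 9 variant genes had it. Models that stop at the end of the coding sequence cannot hold it, and 30 of the 63 had only such transcripts. Below are the sites of 6 genes described in the results, with the motif in capitals and 5 bases on each side. A match describes these letters and is no evidence of use.
H2BC5, chr6:26158582-26158607, plus strand: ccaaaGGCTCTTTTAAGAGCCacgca
H2AC6, chr6:26124664-26124689, plus strand: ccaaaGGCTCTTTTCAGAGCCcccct
H2BC6, chr6:26184205-26184230, plus strand: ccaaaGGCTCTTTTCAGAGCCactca
H3C10, chr6:27810511-27810536, plus strand: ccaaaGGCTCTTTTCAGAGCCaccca
H4C8, chr6:26285126-26285151, minus strand: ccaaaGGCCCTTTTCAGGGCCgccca
H2AX, chr11:119094893-119094918, minus strand: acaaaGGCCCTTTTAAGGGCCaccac

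Promoters are shown for the 4 replication-dependent genes with the most counts and for 2 genes that moved the other way. RefSeq promoter sequences (GRCh38.p14) were found for 72 of the 78 genes. Up to 250 bases before the start were searched on both strands for the TATA box, taken as TATAAA, the CCAAT box, taken as those letters, the octamer bound by POU2F1, taken as ATTTGCAT, and an E2F-type site, taken as TTTCGCGC. Matches may overlap each other. The 150 bases before the start are printed on the gene's strand, with matches on either strand in capitals.
H2BC12, chr6:27146856-27147005, minus strand: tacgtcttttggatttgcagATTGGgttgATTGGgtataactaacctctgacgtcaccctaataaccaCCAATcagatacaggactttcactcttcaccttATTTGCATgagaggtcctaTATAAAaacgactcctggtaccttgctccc
H1-2, chr6:26056471-26056620, minus strand: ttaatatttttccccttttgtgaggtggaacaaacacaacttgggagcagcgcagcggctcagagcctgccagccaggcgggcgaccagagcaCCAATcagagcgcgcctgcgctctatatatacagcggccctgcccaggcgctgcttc
H2BC5, chr6:26157971-26158120, plus strand: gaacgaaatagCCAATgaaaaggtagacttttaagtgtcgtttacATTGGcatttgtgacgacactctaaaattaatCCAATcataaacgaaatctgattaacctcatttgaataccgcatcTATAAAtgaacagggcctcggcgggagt
H2AC6, chr6:26124022-26124171, plus strand: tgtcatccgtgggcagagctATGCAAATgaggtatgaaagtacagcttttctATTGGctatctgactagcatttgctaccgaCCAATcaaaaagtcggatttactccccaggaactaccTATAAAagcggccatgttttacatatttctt
H2AX, chr11:119095466-119095615, minus strand: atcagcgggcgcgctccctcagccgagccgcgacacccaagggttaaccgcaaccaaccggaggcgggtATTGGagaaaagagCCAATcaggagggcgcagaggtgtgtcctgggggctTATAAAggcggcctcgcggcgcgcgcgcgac
H2AZ1, chr4:99950276-99950425, minus strand: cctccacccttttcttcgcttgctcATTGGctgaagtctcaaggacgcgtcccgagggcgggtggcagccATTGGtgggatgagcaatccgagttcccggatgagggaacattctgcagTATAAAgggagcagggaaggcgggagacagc

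Among the 60 replication-dependent genes with a promoter entry, 70.0% held the TATA box, 85.0% the CCAAT box, 43.3% the octamer and 18.3% the E2F-type site. The corresponding shares over all 27305 genes with an entry were 13.0%, 37.0%, 2.03% and 0.542%. The octamer was found in 14 of 17 H2B genes and 11 of 15 H2A genes, and in none of the 5 H1 or 12 H4 genes. Of the 8 variant genes with an entry, 3 held the TATA box, 6 the CCAAT box and 1, H3-3B, the octamer. The 9 replication-dependent genes that fell (below) did not share 1 set of motifs: 6 held the TATA box, 8 the CCAAT box, 5 the octamer and 2 the E2F-type site.

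The libraries held 24993064 to 32044191 counts each, and 3 counts, the most that a count of 0 allows by counting error alone, came to 0.0968 to 0.115 CPM (counts set to a library of one fixed size, with TMM factors). Of 16591 genes tested, 4449 were higher and 4311 lower in shSIRT1 by edgeR's quasi-likelihood test at an adjusted p under 0.05. With library totals in place of TMM the split was 6225 higher and 3021 lower, and the median log2 fold change of all genes moved from 0.005 to 0.126. SIRT1 stood at 26.0, 24.8 and 24.0 CPM in shfirefly and 12.9, 13.2 and 14.7 CPM in shSIRT1. EPAS1 was at 409 to 483 CPM in shfirefly and 226 to 245 CPM in shSIRT1. Lower in shSIRT1 were thus both SIRT1, the target in the labels, and EPAS1, the target in the treatment protocol. Of 12 cartilage markers 6 were tested, of which SOX9 and MATN3 were higher and ACAN and HAPLN1 lower; COL2A1, the defining cartilage collagen, had 3 counts in all shfirefly libraries and 30 in shSIRT1, and COL9A1 had none. Of 13 markers of other cell types 5 were tested and 0 were called, and their summed level, unscaled, was 4.10 to 4.50 CPM in shfirefly and 3.75 to 4.35 CPM in shSIRT1. For some markers the ratio of counts pooled over libraries had an interval for counting error that excluded 1. Such intervals do not cover variation between libraries. Higher in shSIRT1 were the endothelial gene CDH5 (1 against 13 counts, 13.2, 1.98 to 560) and the epithelial gene EPCAM (10 against 30, 3.04, 1.45 to 6.98). The EPCAM counts in shSIRT1 were 6, 20 and 4, so most came from the second library. PECAM1 was lower in its pooled counts (61 against 38, 0.632, 0.410 to 0.963). Its groups overlapped, with 13, 12 and 36 counts in shfirefly and 18, 11 and 9 in shSIRT1. It was not called (adjusted p = 0.21 by edgeR's quasi-likelihood test). The part of other cells in the histone results was not tested.

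The replication-dependent histone RNA retained by poly(A) selection was lower in shSIRT1, and variant histone RNA was, in sum, slightly higher. Counts of the 65 replication-dependent genes together came to 153.8, 156.6 and 151.3 CPM of the unscaled library in shfirefly and 106.6, 103.9 and 97.5 CPM in shSIRT1. The 9 variant genes together came to 1564, 1579 and 1618 CPM, again unscaled, in shfirefly and 1747, 1796 and 1818 CPM in shSIRT1. The groups did not overlap in either sum. After TMM scaling, the ratio of shSIRT1 to shfirefly was 0.616 for the replication-dependent sum and 1.035 for the variant sum. The ratio of the classes within a library, which no scaling between libraries touches, was 9.83, 9.92 and 9.35 replication-dependent counts per 100 variant counts in shfirefly. In shSIRT1 it was 6.10, 5.79 and 5.37, for means of 9.70 ± 0.307 and 5.75 ± 0.369 (SD, n = 3). No test was run on these sums, and because they are not divided by gene length they do not compare amounts of RNA between the classes.

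**Figure D1:**
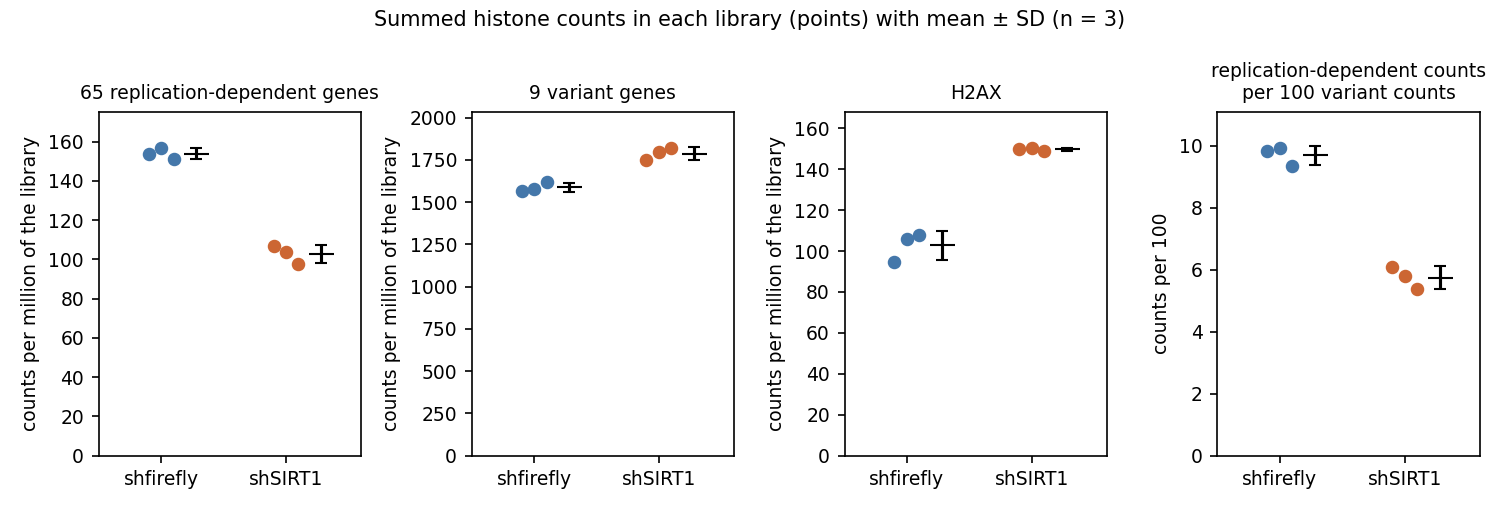
Summed counts of 65 replication-dependent genes, 9 variant genes and H2AX as unscaled CPM, and replication-dependent counts per 100 variant counts, with 1 point per library and the mean ± SD (n = 3) beside them. The shSIRT1 points lie below all shfirefly points in the first and last panel (97.5 to 106.6 against 151.3 to 156.6 CPM in the first) and above them in the middle panels.

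Most replication-dependent genes were barely represented. Of the 65, 24 had no count in any library, 27 had counts but too few to be tested, and 14 were tested. By the test 9 of the 14 fell, none rose (0) and 5 were not called, and the median log2 fold change was -0.61. Over all genes tested, 26% were called lower and 26.8% higher, and the median was 0.005. In 10 of the 14 the groups' CPM ranges lay apart, against 59.7% of all genes tested. A gene expressed only in 1 group could pass the filter through that group, so the counts over tested genes do not extend to the untested ones. Without the filter, the median log2 fold change over 41 replication-dependent genes was -0.48. The 4 genes with the most counts, H2BC12, H1-2, H2BC5 and H2AC6, held 72.8% of all replication-dependent counts.

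H1-2 is the replication-dependent linker histone gene with the most counts and lies at chr6:26055787-26056428 on the minus strand, a single exon in GENCODE 29. It stood at 35.4, 38.3 and 32.1 CPM in shfirefly and 18.1, 18.1 and 17.0 CPM in shSIRT1. Every shSIRT1 library was below every shfirefly library. The log2 fold change was -0.99 ± 0.07 (SE; adjusted p = 1.6e-10 by edgeR's quasi-likelihood test after Benjamini-Hochberg correction, the source of every adjusted p below), or 1.98-fold lower. Of the other 4 H1 cluster genes, 3 had no counts, and H1-4 had 39 counts over the shfirefly libraries and 15 over shSIRT1, a ratio of 0.390 after scaling (95% interval for counting error 0.200 to 0.724).

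H2BC5, an H2B gene at chr6:26158146-26171349, had the largest fall of the tested histone genes. Its values were 21.9, 23.2 and 18.4 CPM in shfirefly and 10.3, 9.36 and 8.67 CPM in shSIRT1. The groups were far apart, with a log2 fold change of -1.16 ± 0.09 (adjusted p = 1.8e-09), 2.24-fold lower. GENCODE 29 gives this gene 2 transcripts: the one with the stem-loop printed above ends 39 bases past it, and the longest, of 789 bases, lacks it. Another gene lies within its span on the same strand (LARP1P1) and another on the opposite strand, so some reads could belong to these. The strand setting of the counting is not given in the sources used here.

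H2BC12, the H2B gene with the most counts, fell less. It stood at 40.9, 42.5 and 45.2 CPM in shfirefly and 32.0, 33.4 and 31.4 CPM in shSIRT1, again without overlap. Its log2 fold change was -0.41 ± 0.06 (adjusted p = 2.5e-06), which became -0.22 when GC content and transcript length were modelled. Its GENCODE 29 model holds the coding sequence only, and 25.9% of that model's 50-base windows occur in no other gene. Reads from that part may be hard to tell from those of other genes. The gene version counted by the authors differs from this model, so the share may not hold for all its reads.

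The other 5 H2B genes with tested counts split into those that fell and those that did not pass. H2BC21, on chromosome 1, was at 7.07, 8.58 and 7.10 CPM in shfirefly and 5.80, 5.25 and 5.16 CPM in shSIRT1 (log2 fold change -0.48 ± 0.12, adjusted p = 0.0015). H2BC15 was at 5.11, 4.59 and 4.45 CPM and at 2.84, 2.45 and 2.25 CPM, in the same order of groups (-0.90 ± 0.15, adjusted p = 2.8e-05). H2BC6 was at 2.80, 2.22 and 2.29 CPM and at 1.27, 0.881 and 1.18 CPM (-1.13 ± 0.22, adjusted p = 0.00016). In all of these the shSIRT1 libraries lay below all shfirefly libraries; the H2BC15 model overlaps an H2A gene on its own strand and 2 genes on the other. H2BC4 was at 3.49, 4.22 and 3.97 CPM in shfirefly and 3.42, 2.77 and 2.90 CPM in shSIRT1, which did not overlap but missed the threshold (-0.35, adjusted p = 0.056). H2BC11 ranged from 3.66 to 4.56 CPM and from 2.90 to 3.94 CPM, with overlap (-0.20, adjusted p = 0.29). H2BC4 did pass the test when either library numbered 1 was left out (-0.44 or -0.45) and under upper-quartile scaling (-0.40).

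Among the H2A genes of the clusters, H2AC6 and H2AC11 fell. H2AC6, at chr6:26124145-26139116, stood at 18.8, 19.9 and 18.8 CPM in shfirefly and 12.2, 11.03 and 10.1 CPM in shSIRT1. Its groups were well separated (log2 fold change -0.79 ± 0.08, adjusted p = 6.5e-08, 1.73-fold lower). H2AC11, at chr6:27133042-27135291, stood at 6.94, 6.44 and 6.74 CPM in shfirefly and 3.78, 3.88 and 4.43 CPM in shSIRT1 (-0.74 ± 0.12, adjusted p = 2.6e-05), also without overlap. H2AC13, with 55 counts over shfirefly and 39 over shSIRT1, did not pass (-0.46, adjusted p = 0.34). It reached the filter level of 0.339 CPM, before TMM, in 3 shfirefly libraries, where it was higher, and in 2 shSIRT1 libraries.

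The H3 and H4 genes of the clusters gave few counts. H4C8, at chr6:26277609-26285638, stood at 6.16, 5.88 and 6.16 CPM in shfirefly and 3.72, 4.37 and 2.87 CPM in shSIRT1, and fell by 0.72 ± 0.14 on the log2 scale (adjusted p = 0.00018). H3C10, the only tested H3 gene of the clusters, had 118, 49 and 73 counts in shfirefly and 62, 64 and 42 in shSIRT1. Its first shfirefly library stood well above the other two, the groups overlapped, and the gene did not pass (-0.49, adjusted p = 0.10); without the second shfirefly library it did (-0.69, adjusted p = 0.017). H4C9 overlapped as well (-0.26, adjusted p = 0.51).

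**Figure D2:**
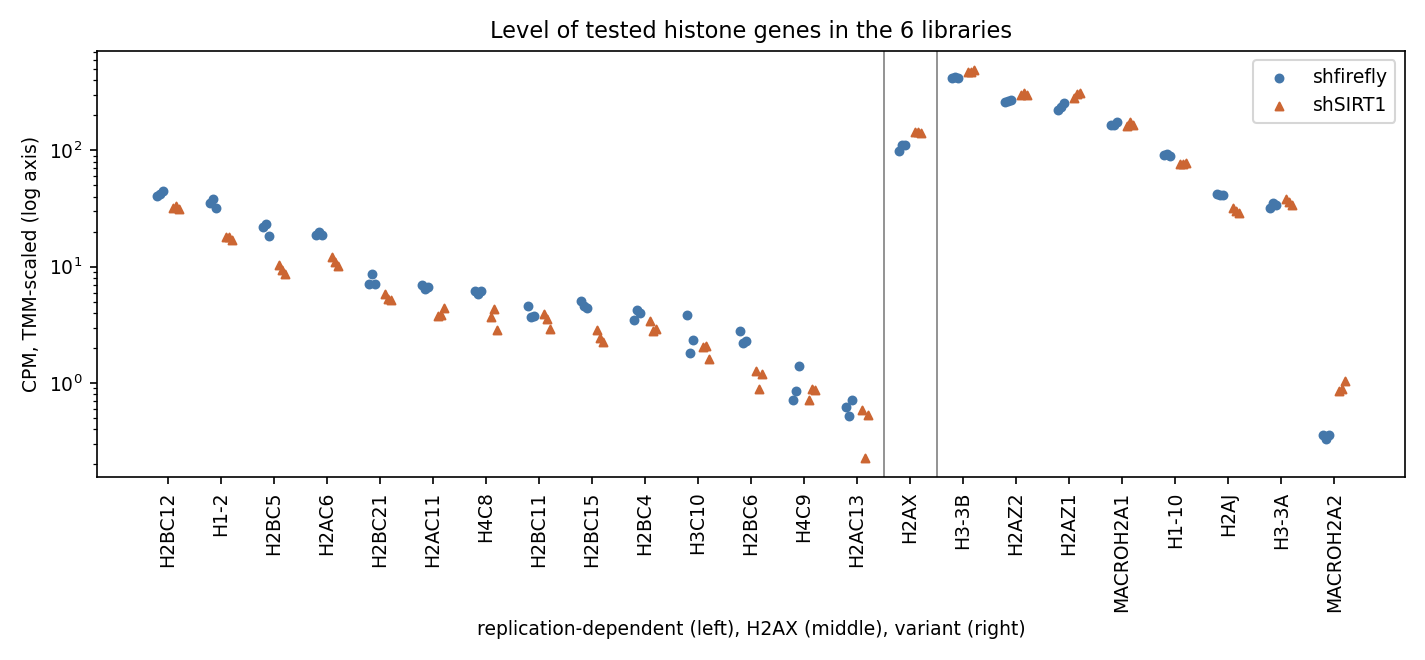
CPM (log axis) of the tested histone genes, 1 variant left out, in each of 3 shfirefly (circles) and 3 shSIRT1 (triangles) libraries, in order of mean CPM within the replication-dependent genes (left), H2AX (middle) and the variants (right). Levels are not per length; the triangles of H1-2 (17.0 to 18.1 CPM) and H2BC5 (8.67 to 10.3 CPM) lie clear below their circles, while those of H2AX (142 to 145 CPM) and MACROH2A2 (0.848 to 1.03 CPM) lie above.

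The 27 replication-dependent genes with counts but no test, with the 24 at 0, summed to 66, 77 and 86 counts in shfirefly and 54, 61 and 33 in shSIRT1. The scaled ratio of these sums was 0.655 (95% interval for counting error 0.529 to 0.809). Apart from H1-4, intervals that excluded 1 were found for H4C14 (25 against 8 counts, ratio 0.325, 0.127 to 0.742) and H4C3 (11 against 2 counts, ratio 0.184, 0.0199 to 0.845); these 3 were named after their values were seen. Intervals of the other untested genes included 1 or had no upper bound. H4C14 shares nearly all its sequence with H4C15, as H2AC18 does with H2AC19 and H3C14 with H3C15. Their levels are uncertain, and how reads that match both copies were counted is not given in the sources used here.

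By position, the genes fell into a cluster on chromosome 1 and 2 stretches of chromosome 6. The first stretch, chr6:25726132-26285638, held 31 replication-dependent genes, of which 6 were tested and 5 fell (median log2 fold change -0.89). The second stretch, chr6:27125897-27893843, held 21, of which 7 were tested and 3 fell (median -0.46). The cluster at chr1:149782689-149887916 held 11, and its 1 tested gene, H2BC21, fell. Of all genes tested, 26% were called lower. The difference between stretches was not tested.

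Some cluster genes lie head to head and share the DNA between their starts, and 11 such pairs had starts within 400 bases. H2BC4 and H2AC6 start 218 bases apart, and the promoters overlap: the octamer in capitals near the left end of the H2AC6 sequence is the one read on the other strand for H2BC4. H2AC6 fell and H2BC4 did not pass. H2BC11 and H2AC11 start 291 bases apart, and H2AC11 fell while H2BC11 did not pass. Differences within pairs were not tested. Counts within a pair could be far apart: H2BC12 had 6631 counts over the 6 libraries and its partner H2AC12 had 12, and H2BC21 had 1143 and H2AC20 had 21.

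Annotated 3′ ends were compared between genes with many, few and no counts. Of the 12 replication-dependent genes with over 200 counts in all, 9 had a stem-loop in their GENCODE 29 model and 2 had coding-only models. A transcript ran at least 100 bases past the stem-loop in 8, such as H2AC6 with 1128 bases, H2AC11 with 1761 and H2BC21 with 1729. Among the 4 genes with the most counts, only H2AC6 had such an extension. H2BC12 and H1-2 had coding-only models, and the stem-loop transcript of H2BC5 ended 39 bases past it. Of the 27 genes with 1 to 200 counts, 10 had a stem-loop, 5 had such an extension and 14 had coding-only models. Of the 24 genes at 0, 8 had a stem-loop, 6 had such an extension and 14 had coding-only models. Transcript models are partly built from polyadenylated RNA, and the annotation release used here may not be that of the authors, so these counts are a description. Counts per gene do not separate extended from stem-loop forms.

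The 9 variant genes all passed the filter and moved in both directions: 4 rose, 3 fell and 2 did not pass. Their median log2 fold change was 0.09. The shfirefly libraries alone would not have brought MACROH2A2 past the filter. For 7 of the 9 the groups did not overlap, against 59.7% of all genes tested. Calls in either direction came to 52.8% of all genes tested. The largest changes in level, apart from MACROH2A2, were below 1.5-fold. Without a scaling factor the median of the variants became 0.22 beside 0.126 for all genes, and 6 were called higher, MACROH2A1 and H3-3A being added.

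Both H2A.Z genes rose; H2A.Z replaces H2A in nucleosomes at promoters and enhancers. H2AZ1, at chr4:99948086-99950388, stood at 223, 238 and 257 CPM in shfirefly and 284, 305 and 309 CPM in shSIRT1 (log2 fold change 0.32 ± 0.05, adjusted p = 2.8e-05). H2AZ2, on chromosome 7, stood at 260, 265 and 272 CPM in shfirefly and 301, 314 and 303 CPM in shSIRT1 (0.21 ± 0.04, adjusted p = 5.5e-05). The groups did not overlap for either gene.

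The H3.3 protein, which is deposited independently of replication, is encoded by H3-3A and H3-3B. H3-3B, on chromosome 17, stood at 423, 430 and 421 CPM in shfirefly and 470, 469 and 491 CPM in shSIRT1. It rose without overlap of the groups (log2 fold change 0.17 ± 0.04, adjusted p = 4e-04). H3-3A stood at 32.0, 35.6 and 34.2 CPM in shfirefly and 38.5, 35.9 and 34.1 CPM in shSIRT1, which overlapped (0.09, adjusted p = 0.21).

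The macroH2A genes encode H2A variants with a large extra domain, found on silent chromatin. MACROH2A2, at chr10:70052796-70112280, had 11, 9 and 11 counts in shfirefly and 26, 27 and 27 in shSIRT1. The ratio of summed counts was 2.62 (95% interval for counting error 1.71 to 4.10), and the gene rose by the test (log2 fold change 1.38 ± 0.34, adjusted p = 0.0018). The filter on low counts asked for 0.339 CPM, before TMM, in 3 libraries of either group. MACROH2A2 reached that level in 3 shSIRT1 libraries, where it is high, and in 2 of the 3 shfirefly libraries. The shfirefly libraries alone would not have met the filter. Without the filter its adjusted p was 0.0019. AIFM2 overlaps it on the other strand. MACROH2A1, on chromosome 5, had a mean of 169 ± 6.97 CPM in shfirefly and 167 ± 7.22 CPM in shSIRT1 (SD, n = 3). Its log2 fold change of -0.02 (adjusted p = 0.76) turned to 0.10 without a scaling factor.

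Among the other variants, H1-10 and H2AJ fell. The linker histone gene H1-10, on chromosome 3, stood at 91.5, 94.0 and 89.8 CPM in shfirefly and 76.4, 77.1 and 78.6 CPM in shSIRT1 (-0.25 ± 0.04, adjusted p = 3.7e-05). The groups did not overlap, yet H1-10, whose transcript has 68.6% GC, was no longer called when GC content and length were modelled (-0.03, adjusted p = 0.59). H2AJ, an H2A variant gene at chr12:14774383-14778002, fell more: 42.5, 41.1 and 41.7 CPM against 32.3, 30.4 and 28.9 CPM (-0.45 ± 0.06, adjusted p = 7.7e-07).

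H2AX, at chr11:119093854-119095467, differed in direction from the replication-dependent genes although its transcript holds the stem-loop printed above. It stood at 98.6, 112 and 111 CPM in shfirefly and 144, 145 and 142 CPM in shSIRT1. All shSIRT1 libraries were above all shfirefly libraries (log2 fold change 0.42 ± 0.05, adjusted p = 1.1e-07, 1.34-fold higher). Its longest transcript runs 1044 bases past the stem-loop. The germline linker genes H1-6 and H1-7 had 1 and 2 counts in all libraries, and H1-8 had none.

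**Figure D3:**
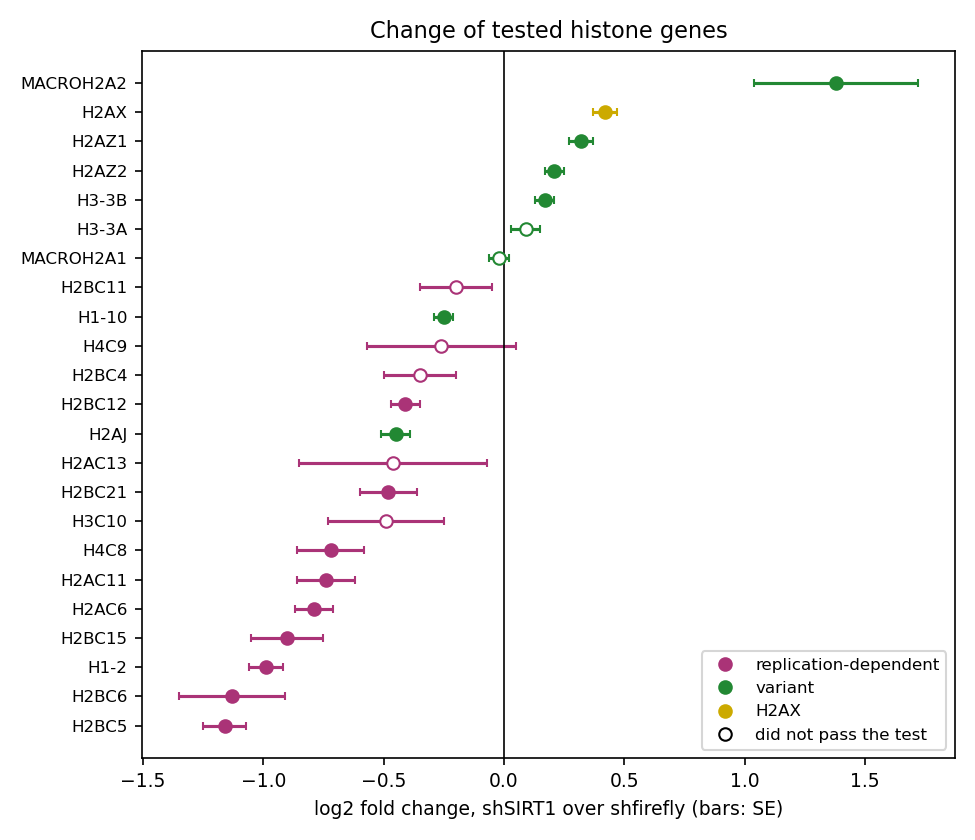
Log2 fold change of the tested histone genes, 1 variant left out, shSIRT1 over shfirefly, with its SE; filled points passed the test and open points did not. The 14 replication-dependent genes all have values below 0, from -1.16 for H2BC5 to -0.20 for H2BC11, and the variants extend from -0.45 for H2AJ to 1.38 for MACROH2A2.

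Genes that make, process or degrade histone mRNA mostly rose, while the replication-dependent RNA retained by poly(A) selection was lower. Of 29 such genes, all tested, 22 rose, 2 fell and 5 did not pass, with a median log2 fold change of 0.37. Of all genes tested, 26.8% were called higher and 26% lower. Genes of RNA decay were among those that rose, such as UPF1 (0.40), XRN1 (0.41) and ERI1 (0.37). SLBP, which binds the stem-loop, stood at 66.8, 64.6 and 67.6 CPM in shfirefly and 91.6, 103 and 101 CPM in shSIRT1 (0.57 ± 0.05, adjusted p = 2e-09). NPAT, the coactivator of histone gene transcription in S phase, stood at 8.40, 8.69 and 12.7 CPM in shfirefly and 17.2, 16.2 and 19.4 CPM in shSIRT1 (0.82 ± 0.16, adjusted p = 0.002). CASP8AP2, a component of the nuclear bodies in which histone mRNA is made, stood at 5.93, 5.33 and 6.97 CPM and at 10.6, 8.25 and 18 CPM. Its groups did not overlap, but it did not pass (1.00 ± 0.36, adjusted p = 0.08). The gene passed in 7 of 17 alternatives, among them DESeq2 (adjusted p = 0.012) and the fit with a replicate block (3.4e-07). Among those where it did not pass, the adjusted p was 0.16 without the filter and 0.21 without shfirefly replicate 1. The other large rises were ZFP36L2, an RNA-binding protein of AU-rich elements (1.06), the cyclin gene CCNE2 (0.83) and the S-phase transcription factor gene E2F1 (0.68). HINFP, a transcription factor of H4 genes, fell by 0.37, and the poly(A) polymerase gene TENT4A fell by 0.35.

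Histone chaperones carry new histones to DNA. Of 32 tested genes for chaperones and deposition factors 21 rose, 2 fell and 9 did not pass, with a median log2 fold change of 0.33. The shares over all genes tested were 26.8% higher and 26% lower. ASF1A, an H3-H4 chaperone, rose by 0.78, MCM2, a helicase subunit that also binds H3-H4, by 0.72, DNAJC9 by 0.67, and CHAF1A and CHAF1B, subunits of the chromatin assembly factor CAF-1 that works at replication forks, by 0.60 each. Genes for deposition of H3.3 outside replication were mixed. HIRA at 0.17 (adjusted p = 0.16), DAXX at -0.01 (adjusted p = 0.85) and ATRX at 0.49 (adjusted p = 0.35) did not pass, while UBN1, a subunit of the HIRA complex named after its values were seen, rose (0.25, adjusted p = 4.3e-05). HIRA passed with library totals (0.29) and in other settings given in the closing section. HJURP, the chaperone of the centromeric H3 variant CENP-A, and CABIN1, a partner of HIRA, each fell by 0.13. The gene CENPA itself rose (0.20, adjusted p = 0.0038).

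Replication genes and the poly(A)-selected RNA of replication-dependent histone genes moved in opposite directions. Histone mRNA without a tail was not measured. All 22 of a list of replication factors, among them PCNA, MCM3 to MCM7, RRM2 and TYMS, rose, against 26.8% of all genes tested. Their median log2 fold change was 0.74. Their summed level, unscaled, was 1630 to 1840 CPM in shfirefly and 2840 to 3070 CPM in shSIRT1. The replication-dependent histone genes had a median of -0.61. The part of cell cycle stage in either result was not tested, and fewer cells in a stage cannot be told apart from less RNA per cell in bulk samples.

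**Figure D4:**
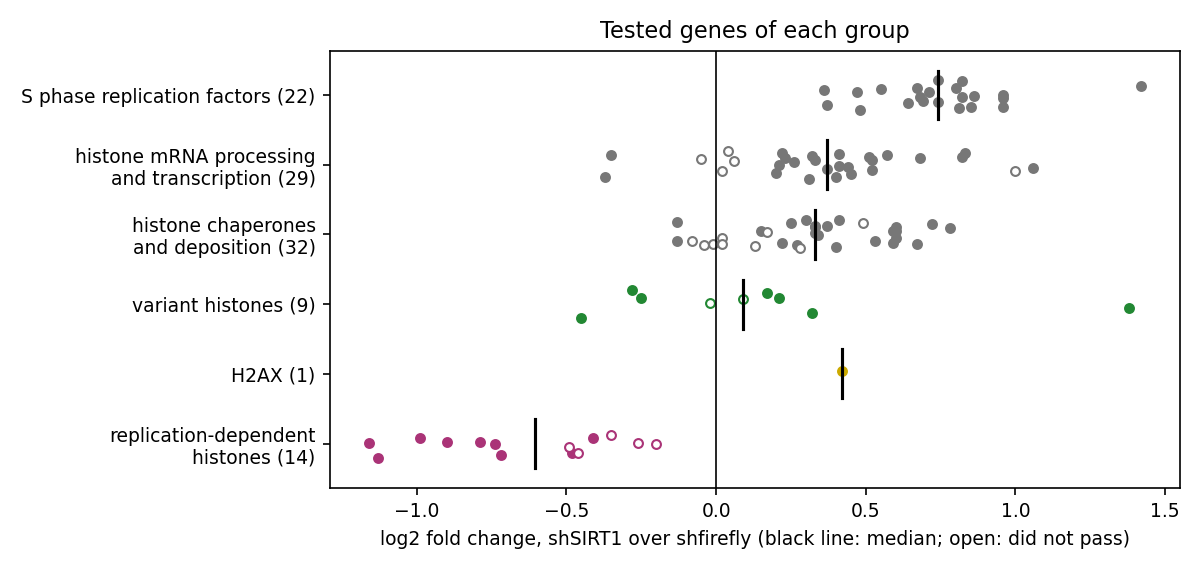
Log2 fold change of every tested gene in 6 groups, with the group's median as a black line, filled where the gene passed the test and open where it did not. The medians are 0.74 for replication factors, 0.37 for histone mRNA processing and transcription, 0.33 for chaperones, 0.09 for variants and -0.61 for replication-dependent histones.

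Small RNAs that normally lack a poly(A) tail had few counts. Of 28 table entries for 27 such small RNAs, 18 had no counts, and their summed level, unscaled, was 3.56 to 5.50 CPM in shfirefly and 5.04 to 6.60 CPM in shSIRT1. Only 3 were tested, and RN7SL1 (-0.09, adjusted p = 0.79) and SNORD17 (0.48, adjusted p = 0.13) did not pass. SNORA73B, with 5, 16 and 8 counts in shfirefly and 25, 33 and 29 in shSIRT1, rose (1.59, adjusted p = 0.002). It reached the filter level in 1 shfirefly library and 3 shSIRT1 libraries, so shfirefly alone would not have met the filter. Among those with fewer counts, SCARNA6 was lower (18 against 6 counts, ratio 0.338, 95% interval for counting error 0.110 to 0.889), and SCARNA7 had 8 against 2. The part of carried-over RNA without a tail in the histone counts was not tested further. An H2B pseudogene, H2BC20P, whose reads may be shared with H2B genes, fell by 0.43.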

How the data were processed

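RNA-seq libraries of SW1353 cells (3 shfirefly, 3 shSIRT1) were analysed from 1 gene table of the series. Its columns of raw counts are the authors' deposited whole-number read counts per gene, per the file headers. Trimmomatic, STAR and DESeq2 were used with the build GRCh38, per the submitters' processing notes. Not given in the sources used here are their versions, the counter, the annotation release, the handling of reads with several matches and the strand setting. Another 6 columns of per-sample values, normalized by the authors, were not used.

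Genes were filtered with filterByExpr (minimum count 10), scaled by TMM and tested with edgeR 4.0.16 in R 4.3.3 (robust quasi-likelihood F test on group, Benjamini-Hochberg adjustment over all 16591 genes tested), and called at an adjusted p under 0.05. The SE was taken as the size of the log2 fold change over the root of its F statistic. The biological coefficient of variation common to all genes was 0.0541. Ratios of few counts have exact conditional 95% intervals. DESeq2 1.42.0 was an alternative; others were RLE and upper-quartile factors, library totals, other filters, a replicate block, no robust estimation, an offset for GC content and length (99.1% of tested genes had both) and fits without 1 library or without both libraries numbered 3. The procedure was tested on simulated data.

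The replicates were compared before averaging, and no pair agreed within sampling noise. Coordinates, exons and stem-loops come from GENCODE 29 on GRCh38 (76 of 78 genes matched, 33 with the same version), promoters from RefSeq on GRCh38.p14. Described library by library were the variants, H2AX, the 12 replication-dependent genes with the highest mean CPM and the called ones with the largest changes, except 1 variant that is counted but not reported by itself here; from the lists, genes set by name and up to 4 called genes with the largest rise and 4 with the largest fall. The histone genes, the lists and the alternatives were chosen with earlier results of these data known.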

Additional observations from a re-analysis of the deposited data

How the results depend on the processing

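Over 17 alternatives the number of replication-dependent genes called lower was 9 to 11 and 0 were called higher in each. Variants called higher numbered 3 to 6 and called lower 2 or 3. The total of genes called ran from 7726 to 9246. With the replicate number as a block, 9 replication-dependent genes were lower, 4 variants higher and 3 lower, and 9176 genes were called in all. Deviations of same-numbered libraries from their group means correlated at 0.0411 for number 1, -0.000285 for number 2 and 0.229 for number 3. Between differently numbered libraries the correlations ran from -0.184 to 0.165. Whether the numbers pair the libraries was not tested. No count of calls moved by over 1.5 times, and shares of the counts of tested genes moved by less than 1 SD. MACROH2A1 turned positive with library totals (0.10), without both libraries numbered 3 (0.03) and without 1 library (range over the 6 such fits -0.05 to 0.01). DAXX turned positive with library totals (0.11), with the GC and length offset (0.09, also with the block) and without 1 library (-0.04 to 0.01), and RN7SL1 likewise (0.04, 0.11, 0.08 with the block, and -0.41 to 0.05). HJURP was lost with library totals (-0.01) and with the offset (-0.06), and CABIN1 with these and without any of 4 libraries. HIRA was gained with library totals, the offset (0.27), the offset with the block (0.28), without shfirefly replicate 3 (0.27) and without both libraries numbered 3 (0.27). MACROH2A2 could not be tested under the filter of 1 CPM in 3 libraries.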

Other observations

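The libraries numbered 3 stood highest in both groups for 6 of the 29 tested genes of histone mRNA processing and transcription and for 11 of the 32 tested genes of chaperones and deposition. The same held for 4 of 22 replication factors and 0 of 6 tested cartilage markers. The share over all genes tested was not computed, so these counts are not read as a trait of the lists. Given here are 3 of the processing and chaperone genes. CASP8AP2 had 6.97 CPM in the third shfirefly library (5.33 and 5.93 in the others) and 18 CPM in the third shSIRT1 library (8.25 and 10.6 in the others). ATRX had 52.2 CPM in the third shfirefly library (36.0 and 42.7 in the others) and 91.4 CPM in the third shSIRT1 library (40.1 and 53.4 in the others). NPAT had 12.7 and 19.4 CPM in the third libraries. The choice of these 3 genes followed from their values. Without both libraries numbered 3 the log2 fold change of CASP8AP2 was 0.74 (adjusted p = 0.00012, edgeR quasi-likelihood test), and over the alternatives that of ATRX ran from 0.10 to 0.72.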
